A study of Mus musculus with 198 samples.

Results

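Gonadal fat and subscapular fat of control mice were compared with 7 other tissues of the same animals. The libraries used were 12 of each depot and 82 of bone marrow, heart, kidney, liver, lung, skin and spleen, out of 198 in the series. The 12 control mice, 6 of each sex, were C57BL/6 animals given the control treatment for 17 weeks; what it consisted of, and the age of the mice, is not given in the sources used here. Another 10 C57BL/6 mice, 5 of each sex, received an antibody against PAPP-A, a secreted protease that frees insulin-like growth factors, for the same time, and the comparison was repeated in them. RNA came from whole tissue, so every library mixes cell types. A gene was called a shared fat gene when it was higher in both depots than in each of the 7 tissues. That is 14 comparisons per gene, and each needed a positive log2 fold change and an adjusted p under 0.05 in edgeR's quasi-likelihood test with the mouse as a block. The lung library of mouse 68 and the heart library of mouse 22 were left out because they hold fat. By this rule 341 of 17229 tested genes were shared fat genes, or 1.98%.

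White fat stores energy as triglyceride in the lipid droplets of adipocytes. Perilipin and CIDE proteins coat and enlarge these droplets, lipases release fatty acids from them under adrenergic and insulin control, and the adipocyte secretes hormones such as leptin and adiponectin. PPARγ, encoded by Pparg, drives adipocyte differentiation together with C/EBPα. Other tissues share parts of this machinery: liver makes and stores lipid, and heart takes up and burns fatty acids.

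Control libraries held 4138419 to 16555811 counts, and 9 very abundant features, ribosomal RNAs among them, took 47.4% to 98.3% of them. The counts left for other genes were 576318 to 2245370 in gonadal fat, 555471 to 2478833 in subscapular fat and as few as 201092 in skin. Levels below are CPM, counts scaled to a common library size, of these remaining counts after TMM scaling. The depots matched their label: the mean of 10 adipocyte markers on the log2(CPM + 1) scale was 8.90 to 10.72 in gonadal fat and 7.80 to 10.59 in subscapular fat, and all 10 were detected in both. Among the other libraries used, the mean reached 8.08 in lung and 7.21 in kidney, both from mouse 37, against medians of 3.23 and 3.83. Both left-out libraries were higher still, at 9.49 in lung and 9.42 in heart. Other cells varied between the depots. The summed skeletal muscle markers were 10.8 to 66.4 CPM in gonadal fat and 9.58 to 94757 CPM in subscapular fat. Summed mesothelial markers were 228 to 1254 CPM and 4.29 to 249 CPM, and summed macrophage markers 1405 to 7388 CPM and 475 to 2700 CPM. Summed B cell markers reached 1189 CPM in subscapular fat of mouse 20, where the median was 6.77 CPM. Their part in the results was not tested. In such bulk libraries fewer cells of a type and less RNA per cell cannot be told apart.

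Against a single tissue many genes were higher in fat. Gonadal fat was called higher than bone marrow for 39.6% of tested genes, than heart for 32.2%, kidney 30.8%, liver 32.4%, lung 24.1%, skin 33.6% and spleen 34.1%. For subscapular fat the shares were 42%, 25.5%, 30.8%, 32.9%, 24.4%, 35.2% and 35.5% in the same order. Lung, with 4155 genes in gonadal fat and 4204 in subscapular fat, thus left the fewest. Gonadal fat was called lower for 37.9%, 24.4%, 27.6%, 27.6%, 26.4%, 32% and 34.1% of genes, and subscapular fat for 37.2%, 19.2%, 23.2%, 23.9%, 27.3%, 31.7% and 35.2%. Against all 7 tissues together 667 genes were higher in gonadal fat and 485 in subscapular fat, and the 341 shared fat genes are those in both sets. The smallest of a gene's 14 log2 fold changes had a median of 1.07 over the shared fat genes and of -1.45 over all tested genes. The rule asks for all 14 to be above 0, so the first median had to be positive. This smallest difference was at least 2-fold for 183 shared fat genes, at least 4-fold for 71 and at least 16-fold for 21, while 158 lay under 2-fold. Of the 341, 325 were annotated as protein coding. Together they took 8.84% to 13.2% of the remaining counts in gonadal fat and 2.85% to 13.9% in subscapular fat. The highest other library was lung of mouse 37, at 4.06%, and the lowest tissue was bone marrow, at 0.715% to 0.847%. These shares come from the libraries that chose the genes, so they describe the set and give it no separate support. Fitted 1 pair of tissues at a time, 218 genes passed the rule, 209 of them among the 341, with 244 of the 341 tested in every pair. Against a log2 fold change of 1 in place of 0, 113 passed.

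Among the shared fat genes heart and lung most often lay closest to fat. The smallest difference was from heart for 88 shared fat genes, from lung for 77, from kidney for 52, from liver and skin for 43 each, from bone marrow for 21 and from spleen for 17. A further 514 genes passed against 6 of the 7 tissues in both depots and missed in 1. The missing tissue was heart for 148 of them, liver for 115 and lung for 90. In the heart and liver sets 59 genes each were lower in at least 1 depot than in that tissue, and in the lung set 28.

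**Figure D1:**
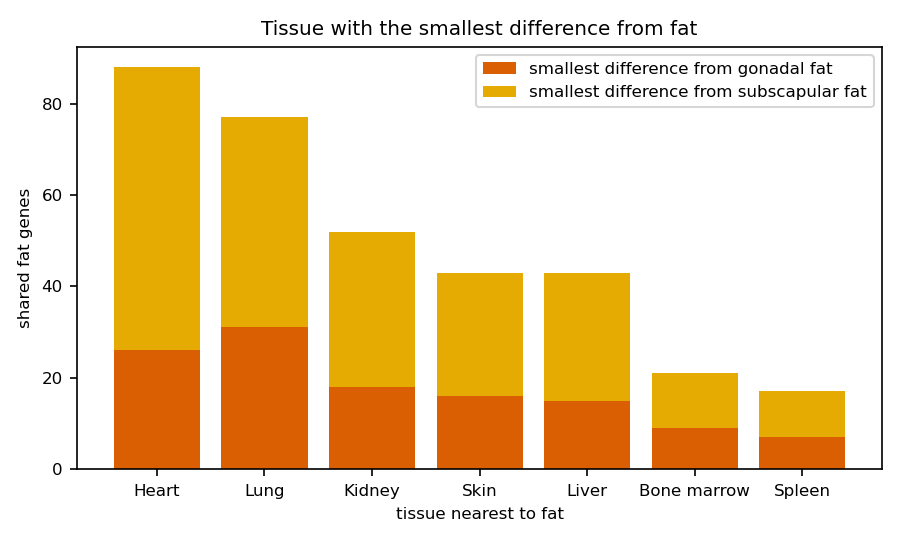
Number of shared fat genes (vertical axis) by the tissue with the smallest difference from fat (horizontal axis), with each bar split by the depot in which that difference was found. Heart (88 genes) and lung (77 genes) have the tallest bars and spleen (17 genes) the shortest.

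PPARγ and C/EBPα bind DNA at known sites, so the promoter windows of the shared fat genes were searched for the letters of their sites. RefSeq windows on GRCm38.p6, 300 bases each from 250 before to 50 after a start, were matched by symbol for 238 of the 341 genes. The C/EBP type site TTNNGCAA, read on both strands, was found for 28 genes (11.8%), and for 1261 of 11400 tested genes with a window (11.1%). The DR1 element of PPAR and RXR was found for 1 gene (0.42%) and for 42 of 11400 (0.368%). The GC box GGGCGG was found for 154 genes (64.7%) against 63.0%, the TATA box TATAAA for 29 (12.2%) against 10.5%, and the cyclic AMP element TGACGTCA for 5 (2.10%) against 3.16%. The shares thus lay close to those of all tested genes. Windows of Lep, Plin1 and Pparg are shown because the hormone, droplet and regulator results below turn on these genes. They were chosen after their matches were seen. The Pparg window lies at an internal start of the gene and is the 1 of 3 Pparg windows with a C/EBP type match. Capitals mark motif matches, which are C/EBP type in all and, in Lep, also the GC box GGGCGG; each sequence reads 5′ to 3′ on the gene's strand.
Lep, chr6:29059971-29060270, plus strand: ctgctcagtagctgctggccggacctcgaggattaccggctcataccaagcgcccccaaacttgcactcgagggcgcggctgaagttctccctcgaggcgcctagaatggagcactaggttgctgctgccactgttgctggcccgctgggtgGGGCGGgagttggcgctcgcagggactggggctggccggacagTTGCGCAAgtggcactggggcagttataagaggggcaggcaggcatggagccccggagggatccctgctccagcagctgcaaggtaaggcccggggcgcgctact
Plin1, chr7:79732727-79733026, minus strand: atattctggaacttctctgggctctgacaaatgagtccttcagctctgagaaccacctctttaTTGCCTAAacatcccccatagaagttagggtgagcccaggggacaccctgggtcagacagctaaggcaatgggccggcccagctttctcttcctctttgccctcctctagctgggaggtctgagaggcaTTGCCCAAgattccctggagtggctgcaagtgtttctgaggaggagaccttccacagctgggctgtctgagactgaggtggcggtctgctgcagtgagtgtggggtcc
Pparg, chr6:115421816-115422115, plus strand: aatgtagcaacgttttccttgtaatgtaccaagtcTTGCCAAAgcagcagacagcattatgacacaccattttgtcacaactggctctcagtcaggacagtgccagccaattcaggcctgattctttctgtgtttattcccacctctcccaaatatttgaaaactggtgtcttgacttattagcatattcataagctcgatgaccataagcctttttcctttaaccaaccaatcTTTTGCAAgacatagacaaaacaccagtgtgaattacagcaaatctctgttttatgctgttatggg
The match in Lep begins 55 bases before the start and is found on both strands. In Plin1 the matches begin 187 and 58 bases before the start, and in Pparg 215 and 16. Matches of different motifs do not overlap here. A match describes the letters of the window only, and binding was not tested.

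Hormones of the adipocyte gave some of the largest differences. Of 16 listed adipokines and secreted products 8 were shared fat genes, beside 1.98% of all tested genes, and the median smallest log2 fold change was 0.02. Adipoq encodes adiponectin and lies on chromosome 16 at 23146536 to 23158028, plus strand, in mm10. Its level was 824 to 3415 CPM (median 1739) in gonadal fat and 418 to 2896 CPM (median 1337) in subscapular fat (n = 12 each). Medians elsewhere lay between 0.983 CPM in liver and 16.7 CPM in kidney. Lung of mouse 37, at 432 CPM, was above the lowest fat library. The smallest log2 fold change, subscapular fat against kidney, was 5.65 ± 0.57 (SE, adjusted p = 5.15e-15), or 50.2-fold, with fat higher in 12 of 12 mice.

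Lep, whose promoter window is printed above, encodes the satiety hormone leptin on chromosome 6 at 29060220 to 29073877, plus strand. It stood at 737 to 2269 CPM (median 1599.5) in gonadal fat and at 52.9 to 2717 CPM (median 597) in subscapular fat. The subscapular depot thus spread much more. No count was seen in the bone marrow libraries, and the highest median elsewhere was 9.72 CPM in kidney. The smallest log2 fold change, again subscapular fat against kidney, was 5.68 ± 0.53 (SE, adjusted p = 3.7e-16). Cfd encodes the protease adipsin (complement factor D). Its level was 180.1 to 4466 CPM (median 1353) in gonadal fat and 167 to 3864 CPM (median 1314) in subscapular fat, and the smallest log2 fold change 5.34 ± 0.65 (SE, adjusted p = 9.44e-12). Retn encodes resistin. Its level was 45.8 to 970.3 CPM (median 318) and 27.0 to 658 CPM (median 206), with a smallest log2 fold change of 4.30 ± 0.43 (SE, adjusted p = 1.91e-15).

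Adig, the gene of the small adipocyte protein adipogenin, separated fat fully. Its lowest fat library had 29.5 CPM and the highest library of another tissue 20.5 CPM, and the smallest log2 fold change was 5.04 ± 0.41 (SE, adjusted p = 1.15e-18), from lung. Npr3, the clearance receptor for natriuretic peptides, had 2.50 ± 0.35 (SE), Angptl4, a secreted inhibitor of lipoprotein lipase, 1.69 ± 0.23 (SE), and the growth factor gene Nrg4 0.71 ± 0.23 (SE). The remaining listed products missed the rule, several of them against liver. Rarres2, the gene of chemerin, was lower in subscapular fat than in liver, with a log2 fold change of -1.12 ± 0.22 (SE, adjusted p = 6.47e-06). Rbp4, the retinol carrier of plasma, and Agt, angiotensinogen, had -4.21 and -4.45 in the same comparison. Metrnl was lower in subscapular fat than in skin, at -1.21 ± 0.23 (SE, adjusted p = 3.73e-06), and Fam132a (C1qtnf12) lower in gonadal fat than in kidney, at -0.68 ± 0.22 (SE, adjusted p = 0.00494).

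**Figure D2:**
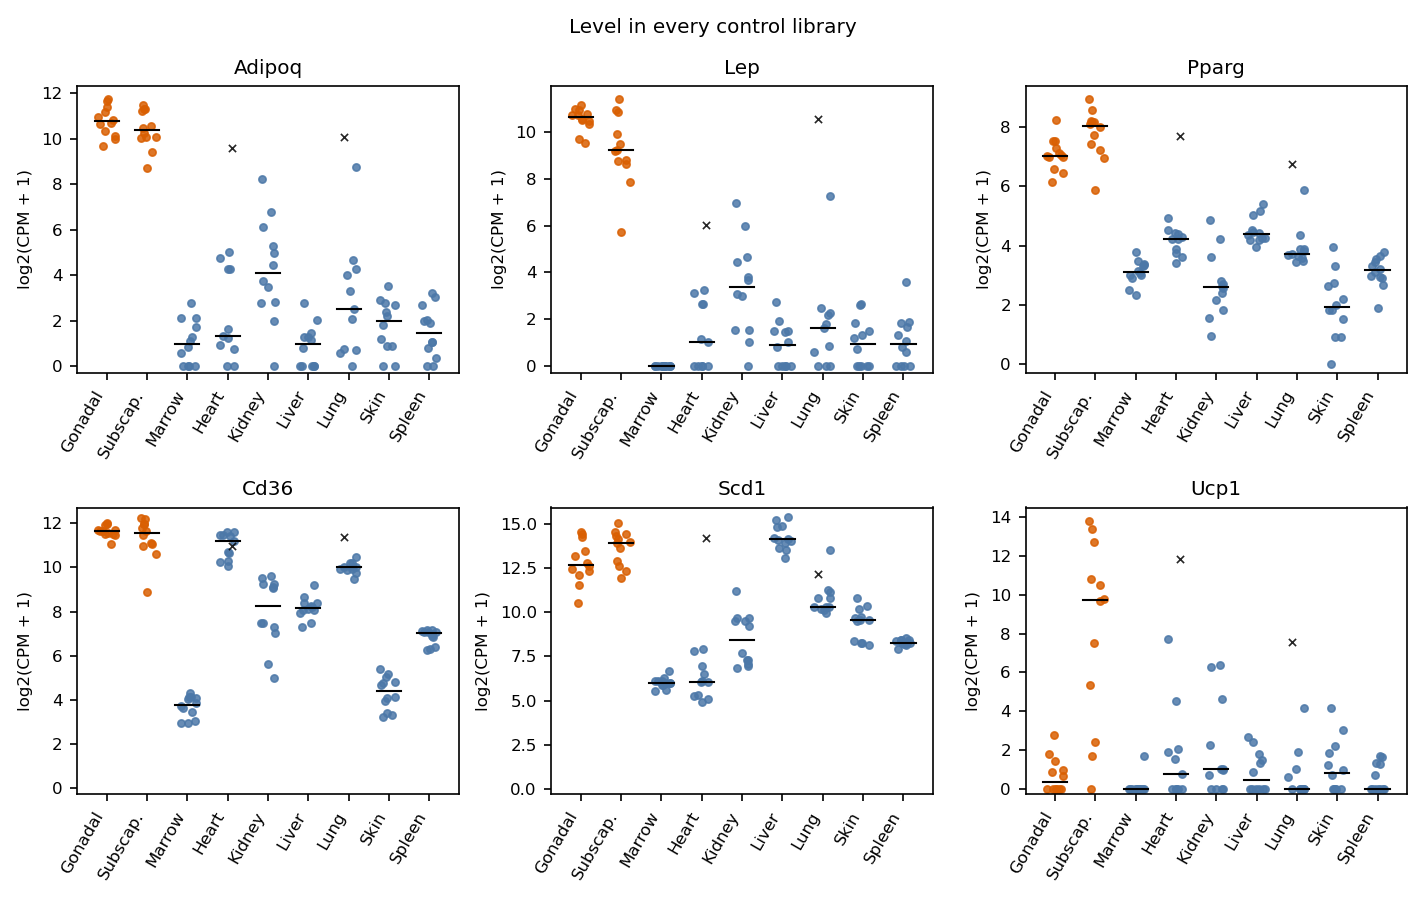
Level of 6 genes on the log2(CPM + 1) scale (vertical axes) in every control library by tissue (horizontal axes); orange points are fat, blue points other tissues, bars are medians of the libraries used and crosses are the left-out lung and heart libraries. Adipoq, Lep and Pparg are highest in fat, Cd36 in heart and Scd1 in liver lie near their fat levels, and Ucp1 runs from 0 to 14352 CPM within subscapular fat.

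Of 10 listed droplet coat genes 5 were shared fat genes, with a list median of 0.31. Plin1, the gene of perilipin 1, which gates access of lipases to the droplet, lies on chromosome 7 at 79720218 to 79732903, minus strand. Its level was 409 to 1135 CPM (median 808) in gonadal fat and 157 to 1409 CPM (median 944) in subscapular fat, against a median of 4.80 CPM in kidney, the highest elsewhere. The smallest log2 fold change, from kidney, was 6.20 ± 0.52 (SE, adjusted p = 3.92e-19), or 73.4-fold, the largest among the 25 genes named by size. Cidec, whose protein promotes droplet fusion, stood at 939 to 2205 CPM (median 1318) and 145 to 1716 CPM (median 1174), with 5.24 ± 0.49 (SE, adjusted p = 4.05e-16).

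Plin4, another perilipin, was also present in heart, at 396 to 705 CPM (median 499), against 1665 to 5333 CPM (median 3615) in gonadal and 372 to 6088 CPM (median 2623) in subscapular fat. The ranges of heart and subscapular fat overlapped, and the smallest log2 fold change was 2.30 ± 0.38 (SE, adjusted p = 3.48e-07), with fat higher in 10 of 11 mice. Mest, an imprinted gene linked to fat expansion, had 2.99 ± 0.30 (SE), and Bscl2, the gene of seipin, which acts in droplet formation, 1.20 ± 0.14 (SE). Plin5, the perilipin of oxidative tissues, was at 49.9 to 196 CPM (median 142) in heart and 1.33 to 11.5 CPM (median 6.08) in gonadal fat, a log2 fold change of -4.44 ± 0.40 (SE, adjusted p = 1.49e-17). Plin2, found on droplets of many cell types, was lower in gonadal fat than in liver, at -0.58 ± 0.22 (SE, adjusted p = 0.0156). Fitm2, which acts in droplet budding, was lower in gonadal fat than in heart, at -1.23 ± 0.19 (SE, adjusted p = 1.88e-08). Fitm1 was lower in gonadal fat than in heart, with -7.58. Cidea, of the same family as Cidec, had -4.84 in gonadal fat against heart, but its depots differed, by -8.53 for gonadal minus subscapular fat, and subscapular fat reached 1543 CPM against at most 39.7 CPM in heart.

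The lipolysis list held 9 shared fat genes of 17, with a median smallest log2 fold change of 0.77. The lipases of all successive steps were among them. Pnpla2, the triglyceride lipase ATGL, was at 264 to 1063 CPM (median 598) in gonadal fat, 162 to 1708 CPM (median 845) in subscapular fat and 90.4 to 210.3 CPM (median 150.4) in heart, and its smallest log2 fold change was 1.97 ± 0.21 (SE, adjusted p = 5.48e-14). Lipe, hormone-sensitive lipase, on chromosome 7 at 25379527 to 25398710, minus strand, was at 380.3 to 1204 CPM (median 784) and 185 to 1750.2 CPM (median 1130.4). Lung was nearest at 30.0 to 209 CPM (median 46.4), and the smallest log2 fold change was 3.78 ± 0.25 (SE, adjusted p = 7.77e-25). Mgll, which cleaves monoglycerides, had 1.40 ± 0.21 (SE), from liver.

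Receptors that start or restrain lipolysis were in the set as well. Adrb3, the β3-adrenergic receptor through which catecholamines act on rodent fat, was at 10.2 to 326 CPM (median 83.9) in gonadal fat and 25.2 to 398 CPM (median 182) in subscapular fat. Its smallest log2 fold change was 3.41 ± 0.44 (SE, adjusted p = 5.16e-10), from lung, where levels reached 49.8 CPM and overlapped those of gonadal fat. Hcar1, the lactate receptor, had 2.76 ± 0.31 (SE), Ptger3, a prostaglandin E2 receptor, 0.92 ± 0.29 (SE), and Adora1, an adenosine receptor, 0.77 ± 0.23 (SE). Lgals12, galectin-12 of the droplet, had 3.26 ± 0.35 (SE), and Pde3b, the phosphodiesterase through which insulin restrains lipolysis, 0.81 ± 0.18 (SE). G0s2, an ATGL inhibitor, and Ffar4, a fatty acid receptor, each passed in 13 of 14 comparisons. G0s2 had 0.33 ± 0.22 (SE, adjusted p = 0.194) against liver and Ffar4 0.75 ± 0.36 (SE, adjusted p = 0.0735) against lung. Abhd5, the ATGL coactivator, was lower in gonadal fat than in bone marrow, at -0.39 ± 0.14 (SE, adjusted p = 0.00921). Adrb1 had -3.61, from lung.

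Among 13 genes of fatty acid uptake 4 were shared, with a list median of 0.06. Fabp4, the fatty acid binding protein of adipocytes, was at 3027 to 5494 CPM (median 4178) in gonadal fat and 633 to 6356 CPM (median 3978) in subscapular fat. Heart was nearest, at 142 to 458 CPM (median 328), and the smallest log2 fold change was 3.66 ± 0.48 (SE, adjusted p = 2.81e-10). Aqp7, through which glycerol leaves the adipocyte, had 1.72 ± 0.27 (SE), Ptrf (Cavin1), a caveolar coat gene, 0.69 ± 0.20 (SE), and Slc27a1, a fatty acid transporter, 0.42 ± 0.16 (SE, adjusted p = 0.0274). Slc27a1 lost its call in 15 of the other settings, DESeq2 and either sex alone among them. Cd36 and Lpl missed the rule against heart, in 1 and 2 of the 14 comparisons. Cd36, the fatty acid translocase, was at 2149 to 4087 CPM (median 3229) in gonadal fat, 477 to 4879 CPM (median 3021) in subscapular fat and 1056 to 3135 CPM (median 2377) in heart, and the difference of subscapular fat from heart was 0.40 ± 0.24 (SE, adjusted p = 0.179). For Lpl, lipoprotein lipase, the medians were 3328 CPM in gonadal fat, 2969.6 CPM in subscapular fat and 3449 CPM in heart, with -0.28 ± 0.21 (SE, adjusted p = 0.289). Cav1 and Cav2, the caveolin genes, had 0.43 ± 0.23 (SE, adjusted p = 0.11) and 0.06 ± 0.18 (SE, adjusted p = 0.804), both against lung.

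No lipogenic enzyme was a shared fat gene. For 14 of the 15 the tissue with the smallest value was liver, and for Scd2 it was lung; the list median was -1.85. Scd1, the desaturase that makes oleate, was at 1494 to 23842 CPM (median 6629) in gonadal fat, 3919 to 33314 CPM (median 15562) in subscapular fat and 8636 to 43104 CPM (median 17722) in liver. The log2 fold change of gonadal fat from liver was -1.27 ± 0.37 (SE, adjusted p = 0.00172). Fasn, fatty acid synthase, had medians of 1085, 7892 and 8151 CPM in these tissues and -1.95 ± 0.43 (SE, adjusted p = 4.09e-05). Both genes were higher in fat in 12 of the 14 comparisons. Triglyceride synthesis held 1 shared gene of 10, Agpat9 (Gpat3), an acyltransferase of the opening step, with 1.39 ± 0.25 (SE). Dgat2, which adds the last acyl chain, had 0.16 ± 0.28 (SE, adjusted p = 0.659) and Gpd1, which supplies the glycerol backbone, -0.21 ± 0.32 (SE, adjusted p = 0.596), both against liver. Lpin1 was lower in gonadal fat than in liver, at -0.67 ± 0.21 (SE, adjusted p = 0.00501).

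**Figure D3:**
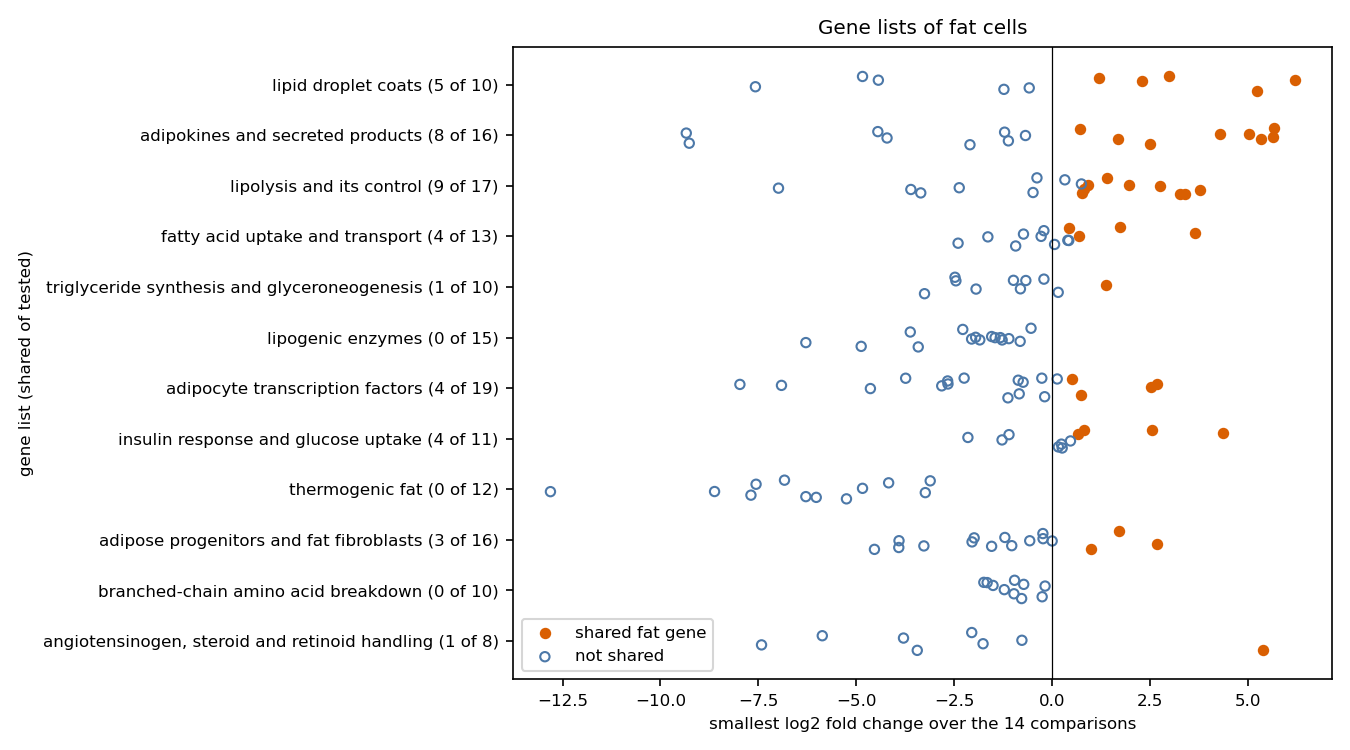
Smallest log2 fold change over the 14 comparisons (horizontal axis) of each tested member of 12 gene lists (vertical axis, with the number shared of those tested); filled points are shared fat genes and open points are not. Lipid droplet coats (5 of 10), adipokines (8 of 16) and lipolysis (9 of 17) hold the most filled points for their size, and lipogenic enzymes, thermogenic fat and branched-chain amino acid breakdown hold none.

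Of 19 adipocyte transcription factors 4 were shared, with a median of -0.86. Pparg, on chromosome 6 at 115360951 to 115490399, plus strand, was at 69.2 to 305 CPM (median 131) in gonadal fat and 58.1 to 491 CPM (median 264) in subscapular fat. The highest library of another tissue had 57.3 CPM, in lung, just under the lowest fat library. The smallest log2 fold change was 2.67 ± 0.25 (SE, adjusted p = 1.01e-16), from liver. Zfp423, a zinc finger factor of preadipocytes, had 2.52 ± 0.28 (SE), Ebf2, an early B cell factor of adipose lineage cells, 0.73 ± 0.31 (SE, adjusted p = 0.0348), and Stat5a 0.50 ± 0.12 (SE). Ebf2 lost its call in 16 of the other settings tried, DESeq2, voom, either sex alone and no replicate block among them, and did not pass in the treated mice. Cebpa, which encodes C/EBPα, was at 199 to 518 CPM (median 318) in gonadal fat and 222 to 512 CPM (median 372) in liver, ranges that overlapped, with -0.19 ± 0.21 (SE, adjusted p = 0.446). Ebf1 had -0.26 ± 0.21 (SE, adjusted p = 0.27) against spleen and Hoxc8 0.13 ± 0.31 (SE, adjusted p = 0.726) against skin.

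Of 11 genes of the insulin response 4 were shared, with a median of 0.26. Tusc5 (Trarg1), which takes part in traffic of the glucose transporter GLUT4, was at 142 to 514 CPM (median 287) in gonadal fat and 44.2 to 859 CPM (median 473) in subscapular fat, with 4.36 ± 0.35 (SE). Slc1a5, a glutamine transporter, had 2.56 ± 0.25 (SE), and Irs2, an insulin receptor substrate, 0.66 ± 0.17 (SE). Irs3, the substrate known from rodent adipocytes, was not on the list and had 3.55 ± 0.37 (SE). Slc2a4, the GLUT4 gene itself, was higher in heart, at 238 to 515 CPM (median 403) against 34.0 to 177 CPM (median 90.1) in gonadal fat, a log2 fold change of -2.15 ± 0.39 (SE, adjusted p = 1.13e-06). Irs1 had 0.47 ± 0.28 (SE, adjusted p = 0.148) against liver, and Pik3r1 0.24 against heart, and neither passed. No gene of branched-chain amino acid breakdown was shared, of 10, and the nearest was Bcat2, with -0.18 ± 0.15 (SE, adjusted p = 0.312) against heart.

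None of 12 tested genes of thermogenic fat was shared. All 12 were called higher in subscapular than in gonadal fat, beside 16.5% of all tested genes. Some of them, such as Ckmt2, Cox7a1 and Cpt1b, are also known from muscle, and the summed skeletal muscle markers differed the same way, reaching 94757 CPM (median 2105) in subscapular and 66.4 CPM in gonadal fat. Their part in this difference was not tested. Ucp1, the uncoupling protein of brown and beige adipocytes, was at 0 in gonadal fat of all 6 females and at 0.568 to 5.74 CPM in that of the males. In subscapular fat the males had 2.26, 180, 1460, 6836, 10622 and 14352 CPM, and the females 0, 4.34, 39.8, 831, 892 and 1824 CPM. Both sexes held low and high animals in this depot. Gonadal minus subscapular fat was -11.18 ± 1.02 (SE, adjusted p = 1.36e-15). Ucp1 was called higher in 7 of the 14 comparisons, and its smallest value was -4.17 ± 1.06 (SE, adjusted p = 0.000411), gonadal fat against kidney. Kidney of mice 55, 3 and 71 had 81.1, 75.4 and 23.8 CPM. The highest of the other kidney libraries, from mouse 37, had 3.82 CPM, within the range of gonadal fat.

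Of 16 tested genes of adipose progenitors and fibroblasts 3 were shared: Pparg and the secreted Wnt inhibitors Sfrp5, with 1.71 ± 0.40 (SE, adjusted p = 0.000221), and Sfrp4, with 0.99 ± 0.43 (SE, adjusted p = 0.045). Sfrp4 was higher in subscapular fat than in kidney in 8 of 12 mice, lost its call in 15 of the other settings, DESeq2, voom and either sex alone among them, and was not tested in the treated mice. Igf1, the growth factor that PAPP-A makes available, was at 234 to 358 CPM (median 311) in gonadal fat and 66.4 to 478 CPM (median 186) in subscapular fat. Liver was higher, at 465 to 997 CPM (median 797), and the log2 fold change of subscapular fat against it was -1.79 ± 0.23 (SE, adjusted p = 2.93e-11), while the 12 comparisons with the 6 other tissues were higher in fat. Igf1 overlaps the antisense gene Igf1os.

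The 25 shared fat genes named by size included receptors for hormones. Acvr1c, the receptor ALK7 of the TGF-β family, on chromosome 2 at 58267453 to 58357895, minus strand, was at 175 to 448 CPM (median 301) in gonadal and 43.4 to 474 CPM (median 335) in subscapular fat. Its highest median elsewhere was 1.80 CPM, and the smallest log2 fold change 5.67 ± 0.42 (SE, adjusted p = 7.41e-22). Tshr, the thyrotropin receptor, was at 87.2 to 209 CPM (median 172) and 26.9 to 244 CPM (median 88.6), with 3.87 ± 0.28 (SE), from bone marrow. Oxtr, the oxytocin receptor, was at 42.0 to 408 CPM (median 86.1) and 1.60 to 289 CPM (median 50.9); a subscapular library thus lay within the range of skin, and the value was 4.16 ± 0.51 (SE), with fat higher in 11 of 12 mice. Mc2r, the corticotropin receptor, was low throughout, at 9.09 to 33.9 CPM (median 18.5) and 2.22 to 35.6 CPM (median 11.8), with 4.34 ± 0.51 (SE).

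Enzymes, carriers and genes of less known function made up the rest. Aoc3, a surface amine oxidase of adipocytes and smooth muscle, was at 234 to 1226 CPM (median 665) and 115 to 1627 CPM (median 453), with 5.39 ± 0.43 (SE, adjusted p = 4.87e-20), from heart. Slc5a7, the choline transporter known from cholinergic neurons, was at 0 to 88.6 CPM (median 37.7) and 0.868 to 103 CPM (median 16.3), and its median was 0 in all 7 other tissues. A gonadal library was thus at 0 too, and the value was 4.62 ± 0.57 (SE, adjusted p = 7.32e-11). In gonadal fat the males had 43.8 to 88.6 CPM and the females 0, 1.11, 1.36, 2.10, 27.0 and 31.6 CPM. The sexes overlapped in subscapular fat. Sncg, γ-synuclein, had 4.56 ± 0.35 (SE) and the imprinted gene Nnat 4.45 ± 0.35 (SE). Nnat lies within Blcap and Apol6 (4.92) overlaps Mb, both on the other strand. Whether the counting used strand is not given in the sources used here, so reads of these pairs may not be told apart. The same holds for Plin4 with Hdgfl2, Mest with Copg2, Bscl2 with Gng3, Stat5a with Stat3 and G0s2 with Lamb3, which overlap. The others were Prr32 (4.56), Ankef1 (3.68), Arxes1 (3.56), Rasd1 (3.48) and Dmrt2 (3.44). Arxes1 is uncertain, because its near-identical copy Arxes2 can share reads with it.

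**Figure D4:**
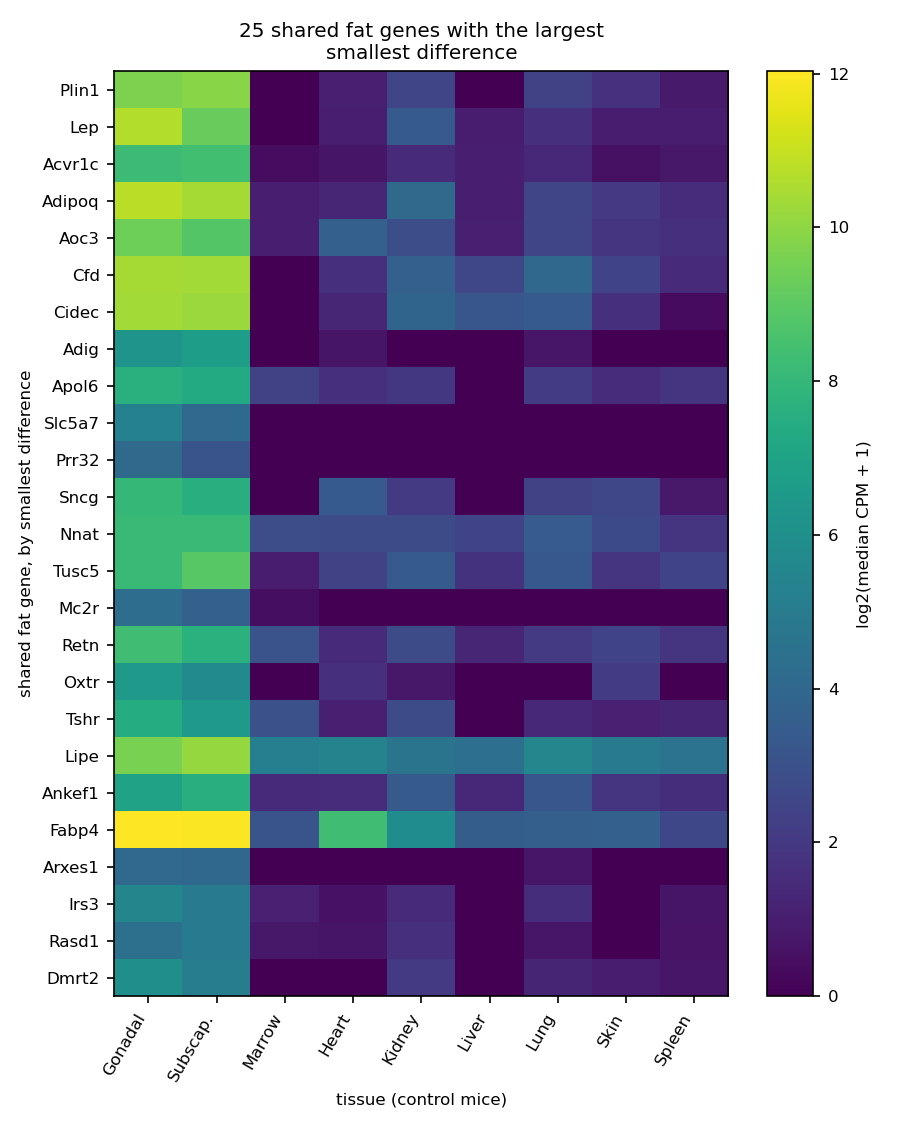
Median level of the 25 shared fat genes named by size (rows, in order of their smallest difference) in 9 tissues of control mice (columns), coloured by log2(median CPM + 1). Both fat columns are the brightest of every row, and outside fat the brightest cell is Fabp4 in heart, whose median was 328 CPM.

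Few genes separated every fat library from every other library. Over all tested genes 6 did (0.0348%), and all 6 were shared fat genes: Adig, Ccl11, Pparg, Pfkfb3, Cdkn2c and the feature named B3GT2_MOUSE. Of the 25 genes named by size only Adig was among them. With lung of mouse 37 and kidney of mice 37 and 55 also left out, a choice made after seeing their adipocyte markers, 35 genes separated the 24 fat libraries from the other 79, or 0.203% of tested genes. All 35 were shared fat genes, and 18 were among the 25. Separation and the rule use the same values, so neither the 6 nor the 35 give the rule separate support. Adipocyte markers such as Adipoq, Lep and Plin1 were among the 35, and the 3 libraries had been left out for such markers. The shared fat genes then numbered 349, of which 336 were among the 341. The smallest fold rose by over 1.5 times for 9 of the 25, and the smallest log2 fold changes became 6.39 for Adipoq, 6.55 for Lep, 6.45 for Acvr1c, 6.27 for Cfd, 6.06 for Cidec, 5.74 for Prr32, 5.24 for Slc5a7, 5.02 for Tusc5 and 4.16 for Irs3.

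The 18 lists of markers of other cell types held no shared fat gene; mast cells were not among these lists. Many of the lists mark cells of 1 of the 7 tissues, such as hepatocytes of liver or cardiomyocytes of heart. Such genes could hardly be higher in fat than in that tissue. The lack of shared genes there does not show that the shared fat genes include none of other cells. The median smallest log2 fold change ran from -0.34 for 9 macrophage genes to -12.58 for 8 neutrophil genes, beside -1.45 for all tested genes. All 9 macrophage genes were higher in fat in at least 7 of the 14 comparisons, as were 5081 of all 17229 tested genes. For 8 of the 9 macrophage genes the smallest of the 14 values was against spleen.

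Within the shared fat genes the depots differed from each other. Of the 341, 95 were higher in gonadal fat, where 16.4% of all tested genes were called, and 38 in subscapular fat, where 16.5% were. Lep was higher in gonadal fat by 1.16 ± 0.43 (SE, adjusted p = 0.0272), Oxtr by 1.07 ± 0.37 (SE, adjusted p = 0.019) and Tshr by 0.64 ± 0.23 (SE, adjusted p = 0.021). Adrb3 had -1.05 ± 0.37 (SE, adjusted p = 0.0221), Pparg -0.71 ± 0.21 (SE, adjusted p = 0.00571) and Pnpla2 -0.65 ± 0.20 (SE, adjusted p = 0.00622), all higher in subscapular fat. The marker genes Adipoq and Fabp4 had 0.36 ± 0.46 (SE, adjusted p = 0.606) and 0.25 ± 0.42 (SE, adjusted p = 0.709), which did not pass. Mesothelial and macrophage markers were higher in gonadal fat, as given above. Muscle markers and thermogenic fat genes such as Ucp1 were higher in subscapular fat. The part of all of these in the depot differences was not tested.

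The same rule in the 10 treated mice called 299 of 16528 tested genes (1.81%). Of the 341 shared fat genes 326 could be tested there, and 266 of them passed all 14 comparisons (81.6%). The smallest log2 fold change was above 0 for all 326, with a median of 1.08 in treated and 1.05 in control mice. The 25 genes named by size all passed. Gonadal fat of mouse 58 and heart of mouse 56 had adipocyte marker means of 7.45 and 5.98. Skin of mouse 36 held 33377 counts outside the abundant features. Without these 3 libraries 280 of 328 passed. They were picked with earlier results known. Heart of mouse 58, with a marker mean of 5.74 against a tissue median of 3.30, was kept. So was lung of mouse 33, at 5.96 against a tissue median of 2.47.

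**Figure D5:**
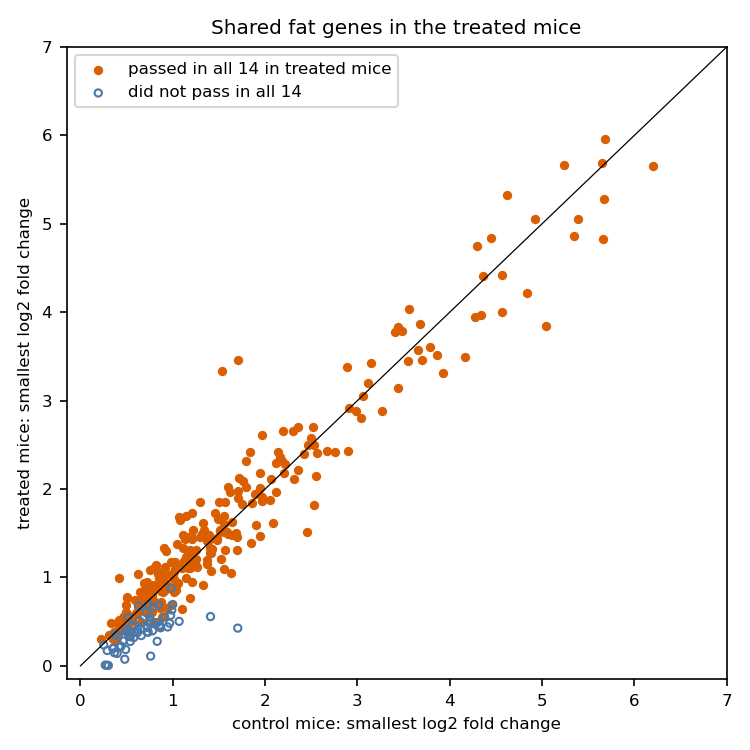
Smallest log2 fold change of the shared fat genes in treated mice (vertical axis) against that in control mice (horizontal axis) for the 326 genes tested in both; filled points passed all 14 comparisons in treated mice (266), open points did not (60), and the line marks equal values. Open points lie at low values on both axes.

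Treatment itself was compared within each depot. In gonadal fat 0 of the 341 shared fat genes passed, as did 0 of 12282 tested genes (0%), by edgeR's quasi-likelihood test and by DESeq2. At an unadjusted p under 0.05 edgeR gave 10 of the 341 and 612 of all genes, and DESeq2 13 and 600. The median log2 fold change of the shared fat genes by edgeR was -0.12, with 269 of the 341 below 0, beside a median of -0.0005 over all tested genes. Gonadal fat of treated mouse 58 had a low adipocyte marker mean of 7.45. Without it the median of the shared fat genes was -0.04, with 223 of the 341 still below 0. In subscapular fat 0 of 323 tested shared fat genes and 0 of 10698 genes passed (0%) by both tools. At an unadjusted p under 0.05 there was 1 of the 323 by each tool, beside 235 genes by edgeR and 263 by DESeq2.

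The difference between fat and the other tissues depended on sex for 14 of the 341 genes, or 4.11%, beside 3.73% of all tested genes. It was larger in females for 8 and in males for 6. Retn was at 306 to 970 CPM (median 639) in gonadal fat of females and at 45.8 to 384 CPM (median 152) in that of males. Its log2 difference between fat and the other tissues was 2.24 ± 0.57 (SE, adjusted p = 0.0108 in edgeR) larger in females. Cfd was at 1338 to 4466 CPM (median 2765) in females and 180 to 1441 CPM (median 461) in males in the same depot, and its difference was 2.71 ± 0.79 (SE, adjusted p = 0.0314 in edgeR) larger in females. Pmepa1, an inhibitor of TGF-β signalling, went the other way, at -1.87 ± 0.31 (SE, adjusted p = 2.87e-05 in edgeR). This test has a blind spot. Of the 341 genes, 72 had no count in some tissue of 1 sex, Lep and Plin1 among them, and the averaged contrast then has no finite estimate in a count model. EdgeR called 0 of these 72. Limma voom, fitted to log values with the mouse as a correlated block, called 6 (8.33%). Slc5a7 was among these 6, with a log2 difference of -1.94 (adjusted p = 0.0211 in voom) for females minus males. Of all 1937 tested genes with such an empty group edgeR called 32 (1.65%) and voom 96 (4.96%). Of the other 269 shared fat genes edgeR called 14 (5.2%) and voom 17 (6.32%). Of all tested genes without an empty group edgeR called 3.99% and voom 3.54%.

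Genes lower in both depots than in all 7 tissues were rarer, 22 of 17229 (0.128%). Most of the 22 were not annotated as protein coding, pseudogenes and antisense genes among them. In these the smallest drop ran from a log2 fold change of -0.24 (Gm17131) to -0.53 (AK159934). The genes named below are protein coding. The number of genes low in fat moved with the fit. It ran from 1 in a test against a log2 fold change of 1, and 4 when each pair was fitted alone, to 45 without subscapular fat of mouse 20. Nt5e, the ectonucleotidase CD73, was at 1.36 to 16.6 CPM (median 7.18) in gonadal and 2.22 to 23.4 CPM (median 6.73) in subscapular fat. The nearest tissue was bone marrow, at 18.9 to 37.9 CPM (median 29.4), and the smallest drop a log2 fold change of -1.80 ± 0.30 (SE). For Ralgps2, a guanine nucleotide exchange factor, it was -0.94, and for Dedd2, Zw10 and Olfr338 it was -0.47 each.

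The threshold cut through a continuous range. Just inside it lay Mpv17l2, Srpx and Ppp3r1, with largest adjusted p values of 0.0486, 0.0485 and 0.0483. Just outside lay Nacc2, Itga11 and Cog4, with 0.0503, 0.0511 and 0.0567.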

How the data were processed

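RNA of whole tissues was sequenced as stranded total RNA libraries, per the labels' protocols. The deposited table holds whole-number counts per gene, made by the authors with Salmon on mm10 after FastQC 0.11.5, per the submitters' processing notes; neither states the strand setting or the Salmon version. Salmon estimates counts, so the deposited counts are probably rounded, and reads of near-identical genes can be split between them. Its 56332 features were matched to libraries by mouse and tissue, and 0 columns of per-sample values were left unused.

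Each library is a separate animal's tissue, so replicates are mice. Features that took 0.9% of counts or more on average, 9 in all, entered neither library sizes nor tests. After filterByExpr by tissue, edgeR 4.0.16 (R 4.3.3) fitted TMM-scaled counts with tissue and mouse as terms over the control libraries used. The quasi-likelihood test gave 14 contrasts, each adjusted by Benjamini-Hochberg, and SE is the log2 fold change over the root of F. "Smallest log2 fold change" is the lowest of the 14. Pairing comes from the shared animals: deviations from tissue means correlated at a mean of 0.0571 within a mouse and -0.0049 between mice. The sex comparison averaged tissues within each sex, with no block in edgeR and the mouse as a correlated block in voom. Treatment was tested within each depot with sex as a term.

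The members and gene lists were chosen with earlier results of these data known. Named genes are the 25 shared fat genes with the largest smallest log2 fold change, an official symbol and at least 5 CPM in each depot, up to 5 shared and 3 other members of each fat list, 5 genes low in fat, 3 on either side of the threshold, and a fixed set of classical fat genes. Further list members, and the genes separating all libraries, were named after their values were seen. Coordinates are GENCODE vM21 on mm10 and promoters RefSeq on GRCm38.p6. On simulated counts with 15939 genes, the rule recovered 16.4% of 67 genes raised 1.5-fold and 55.2% of 67 raised 2-fold. Of 66 genes raised 4-fold it recovered 97.0%. Genes under 2-fold are thus often missed. There were 0 false calls, but a call needs every comparison to pass at once. That 0 therefore does not give the rate of false calls among genes higher in fat than in only some of the tissues. Alternatives were DESeq2 1.42.0, limma 3.58.1 (voom), RLE scaling, other filters, libraries and tissues, single sexes and leaving out each mouse. Results of some list members are not reported here.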

Additional observations from a re-analysis of the deposited data

Results flagged for a closer look

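Among the 10 treated mice, gonadal fat of mouse 58 lay apart from the other libraries of its tissue, with an adipocyte marker mean of 7.45 on the log2(CPM + 1) scale. Skin of treated mouse 56 lay apart in the other direction, at 4.68. The rule behind both statements marks about 1 group in 20 by chance. The 2 control libraries left out of the comparison, lung of mouse 68 and heart of mouse 22, had marker means of 9.49 and 9.42, inside the range of the control fat depots.

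For 14 shared fat genes the difference between fat and the other tissues differed between the sexes in edgeR. It was larger in females for Cfd (2.71), Retn (2.24), Thbs2 (1.31), Car5b (1.23), Ifi205 (1.02), Nrip1 (0.71), Ppp2r1b (0.66) and Sh3glb2 (0.54), as log2 differences of females minus males. It was larger in males for Pmepa1 (-1.87), Map1a (-0.92), Enc1 (-0.79), Abhd12 (-0.72), Hacd2 (-0.66) and Rtn4 (-0.62). By voom 13 of these 14 also passed, and Thbs2 did not.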

How the results depend on the processing

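The shared fat genes numbered 341 in the reported fit. With no replicate block, that is without the mouse as a term, there were again 341, of which 333 were the same genes. Other settings gave 330 (DESeq2), 314 (voom), 328 (RLE scaling), 387 (no filter on low counts), 360 (abundant features kept), 343 (adjusted over all 14 contrasts together), 308 (lung of mouse 68 and heart of mouse 22 kept), 254 (females), 266 (males) and 405 (skin left out). Leaving out 1 mouse at a time gave 303 to 351, with 269 of the 341 called in all 12 fits. Settings chosen after seeing the data gave 339 without lung of mouse 37, 349 without that library and kidney of mice 37 and 55, and 358 without subscapular fat of mouse 20. Each pair of tissues fitted alone gave 218, and a test against a log2 fold change of 1 gave 113. Single pairs also gave fewer calls for subscapular fat: 4581 genes higher than bone marrow, 2331 than heart, 2947 than kidney, 3050 than liver and 3475 than skin, and 3041 lower than lung. These fits use fewer samples. Each also takes the spread from its own pair, where the reported fit shares 1 estimate over all 9 tissues. The part of either in the lower counts was not tested. All 25 genes named by size passed in every setting that tested them; 8 were not tested in every single pair. For 9 of the 25 the smallest fold rose over 1.5 times without the 3 libraries of mice 37 and 55, and for 3 it fell.

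The count of genes low in fat, 22, was less stable: 43 with DESeq2, 34 with RLE scaling, 6 with no filter, 4 in single pairs, 1 against a log2 fold change of 1, 45 without subscapular fat of mouse 20, and 12 (without mouse 55) to 40 (without mouse 20) when 1 mouse was left out. Voom called 23 shared fat genes for sex in place of 14, of which 6 had no count in some tissue of 1 sex.

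Some smallest log2 fold changes of genes that were not shared changed sign. Mfap5, 0.00 as reported, was -0.0728 with DESeq2, -0.0689 with voom, -0.0678 with RLE scaling, -0.00558 with no filter, -0.00765 with the left-out libraries kept, -0.0341 without lung of mouse 37, -0.0136 without the 3 libraries of mice 37 and 55, and -0.34 in males. Without 1 mouse it ran from -0.16 to 0.14. Hoxc8 was -0.11 with voom, -0.13 in males and -0.19 (without mouse 4) to 0.30 without 1 mouse. In females Nacc2 was -0.19, Dgat2 -0.0893, Cav2 -0.20, Cebpa 0.16, Gpd1 0.11 and Ebf1 0.0156. In males Irs1 was -0.53, G0s2 -0.25, Cog4 -0.0605 and Pik3r1 -0.0502. Cav2 ran from -0.0807 to 0.26 without 1 mouse. The cause was not tested. Metrnl, -1.21 as reported, was 0.12 with skin left out, since skin gave the reported value. Of the shared fat genes named, 13 lost their call in at least 1 setting, most often Mpv17l2 and Ppp3r1 (20 settings each), Srpx (18), Ebf2 (16), Sfrp4 and Slc27a1 (15 each).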

Other observations

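Some gene groups outside the fixed lists held shared fat genes, which were 1.98% of all tested genes. They were put together after the values were seen, so their counts are descriptions with no test. Collagens were the largest such group: 12 of 34 collagen genes were shared fat genes, with a median smallest log2 fold change of -1.51 over all 34. They included the fibrillar chains Col1a1, Col1a2, Col3a1, Col5a1, Col5a2 and Col5a3, the basement membrane chains Col4a1 and Col4a2, the collagen VI chains Col6a1, Col6a2 and Col6a3, and Col15a1. Col5a3 had 2.31 ± 0.29 (SE) and Col3a1 2.12 ± 0.36 (SE), while Col4a2 had 0.63 ± 0.23 (SE).

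Of 5 Cd209 lectin genes, the mouse relatives of DC-SIGN, 3 were shared: Cd209d with 2.14 ± 0.51 (SE), Cd209f with 1.94 ± 0.37 (SE) and Cd209g with 1.79 ± 0.39 (SE). Reads may be split between these similar genes. The median over the 5 was 1.79. Of 7 mast cell proteases and receptors 3 were shared, Tpsb2 (2.06), Cma1 (1.70) and Mcpt4 (1.33), with a median of -0.21 over the 7. Of 20 chemokine genes 3 were shared, Ccl11, the eotaxin that attracts eosinophils (3.04), Ccl7 (2.53) and Ccl8 (1.25); the median over the 20 was -1.88, below the -1.45 of all tested genes. Of 25 imprinted genes 5 were shared, Nnat (4.45), Mest (2.99), Peg10 (1.83), Peg3 (1.21) and Ndn (1.11), with a median of -0.69 over the 25. The whole-tissue libraries hold fibroblasts, vessels and immune cells beside adipocytes, and the part of each was not tested.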
